A study of Mus musculus with 25 samples.

Results

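Dystrophin, its relatives utrophin and dystrophin related protein 2, and 5 genes of the glycoprotein complex that holds them at the membrane were followed in muscle messenger RNA of 25 mice. The 8 genes were Dmd, Utrn, Drp2, Dag1, Sgca, Sgcb, Sgcd and Sspn, of 8829 genes in the table, and all 8 were measured in every mouse. They were chosen by their known place in the complex, with earlier results of these data known. Drp2, by exception, was selected on its measured difference between thymol and control mice in these same libraries. The difference of Drp2 is therefore given as a description, with no test. The mice were male SAMP8 mice, an inbred line with accelerated senescence, and both groups shared this background. From 8 months of age they were given corn oil alone (control, n = 11 mice) or thymol in corn oil at 20 mg per kg of body weight a day (thymol, n = 14 mice) for 3 months, by mouth and on most days of the week. The gastrocnemius, the large calf muscle, was then profiled with 1 library per mouse. SAMP8 is a single inbred line with no unaffected strain beside it here, so the values describe this line only.

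Dystrophin is a long rod that ties the actin cytoskeleton of the muscle fibre to dystroglycan in the plasma membrane, and dystroglycan in turn binds laminin outside the cell. The sarcoglycans and sarcospan are membrane proteins that sit beside dystroglycan and stabilise this link, and loss of dystrophin or of a sarcoglycan causes muscular dystrophy. Utrophin, a paralogue, is found at the neuromuscular junction and in many other cells. Dystrophin related protein 2 is the shortest of the 3 relatives and is best known from the myelinating Schwann cells of peripheral nerve, where it binds dystroglycan.

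All 8 genes have an Ensembl identifier and a place on mouse genome build GRCm38 in the GENCODE M21 annotation. Dmd lies on chromosome X, on the plus strand, from 82948870 to 85206141 (ENSMUSG00000045103). Drp2 is also on the plus strand of chromosome X, from 134404551 to 134456573 (ENSMUSG00000000223), and overlaps no other annotated gene. Utrn lies on chromosome 10 from 12382188 to 12869365 and Dag1 on chromosome 9 from 108204634 to 108263958, both on the minus strand. The sarcoglycan genes are all on the minus strand, with Sgca on chromosome 11 from 94962791 to 94976327, Sgcb on chromosome 5 from 73632749 to 73647790 and Sgcd on chromosome 11 from 46896253 to 47988969. Sspn is on the plus strand of chromosome 6, from 145931641 to 145965223. On the opposite strand, the antisense gene Sspnos overlaps Sspn, the coding genes Hils1 and Tsga8 overlap Sgca and Dmd, and the pseudogenes Gm7525 and Gm12176 lie within Utrn and Sgcd. The counting strand is not given in the sources used here, so reads of these overlapping genes cannot be told apart from those of Sspn, Sgca, Dmd, Utrn and Sgcd where they share bases. Annotated genes on the same strand also overlap Dmd, Utrn, Sgcb, Sgcd and Sspn. Strand cannot separate reads of those genes where bases are shared. The last exonic bases of the coding transcripts, where the reads fall, were compared with those of all other genes in stretches of 31 bases. No stretch of Dmd, Utrn, Dag1, Sgca, Sgcb or Sspn was shared, and 0.301% of those of Drp2 and 0.0877% of those of Sgcd were.

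Reads were made from the 3′ ends of transcripts, so a read assigned to Dmd does not show which start its transcript came from. A pair of Dmd starts far apart in the gene is listed in RefSeq on GRCm38.p6, and the 250 bases before each are printed because their products are summed in the Dmd values that follow. The first lies before the start of the full-length muscle transcript, at chrX:82948620-82948869 on the plus strand. The second lies near the other end of the gene, at chrX:85048045-85048294 on the plus strand, before a start that gives a short product lacking most of the rod. Capitals mark the E-box CANNTG, read on both strands by its symmetry, a motif bound by the myogenic factors.
Dmd, full-length start: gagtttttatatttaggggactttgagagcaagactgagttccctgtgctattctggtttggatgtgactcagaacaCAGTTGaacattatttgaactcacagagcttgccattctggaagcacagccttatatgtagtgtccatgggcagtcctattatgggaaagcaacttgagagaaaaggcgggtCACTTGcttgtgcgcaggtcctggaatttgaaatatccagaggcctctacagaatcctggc
Dmd, short-form start: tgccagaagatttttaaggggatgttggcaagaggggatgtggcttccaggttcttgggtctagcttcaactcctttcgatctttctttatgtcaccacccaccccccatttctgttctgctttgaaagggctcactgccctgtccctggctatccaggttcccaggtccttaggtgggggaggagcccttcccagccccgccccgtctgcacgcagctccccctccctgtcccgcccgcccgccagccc
The first window held 2 E-boxes and 45.2% G and C, and the second held 0 E-boxes and 60% G and C. Of 32851 windows of this length in the RefSeq table, 66.2% held at least 1 E-box, with a median of 1. Windows were found for 7 of the 8 genes, 10 windows in all, and among the other genes they held from 0 (Sgcb) to 7 (Utrn) E-boxes. These are matches of letters in a window, and which start was used was not measured.

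Each library held between 4463818 and 9463418 reads on the genes of the table. The median was 7554333 for control and 7479077 for thymol mice, and mitochondrial genome genes held 22% to 33.9% of the reads. The skeletal muscle genes Myh4 and Acta1 were high in every library. Their mean log2 CPM (the log2 of reads scaled to a common library size) was 15.04 for Myh4 (lowest 14.38) and 14.7 for Acta1 (lowest 14.52). Of 4 genes of other tissues, Alb, Apoa2 and Nppa had no row in the table and Myh6 had a mean log2 CPM of 4.88. Control mouse 18, thymol mouse 20 and control mouse 19 lay farthest out on the first 3 principal components, at 29.2, 24.5 and 29.8 from 0, against 15.2, 16.6 and 16.7 for the next mouse. The difference of Drp2 and the list means that depend on them are also given without them. The labels call each library a separate mouse, and litters, cages and days are not given.

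Because each transcript yields reads from its 3′ end only, the number of reads does not grow with transcript length. Levels of the genes were therefore compared as log2 CPM without a length correction. The coding transcripts have from 1 (Sgcb and Sspn) to 7 (Utrn) distinct annotated 3′ ends. How fully reads from each gene's ends were counted was not measured, so distances and folds between genes are of counted reads and may differ from those of transcripts. Dmd was the highest of the 8 genes with a mean of 7.93 log2 CPM over all 25 mice, above 96.2% of the genes in the table. Dag1, the gene of both dystroglycan subunits, followed at 7.72 and Sspn (sarcospan) at 6.50. Sgca, the gene of α-sarcoglycan that is made in striated muscle, had a mean of 6.34, Sgcb (β-sarcoglycan) 5.51 and Utrn 5.51. Sgcd (δ-sarcoglycan) at 2.70 and Drp2 at 2.29 were far below the rest, with Drp2 above only 7.12% of the genes.

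Within a mouse, some steps of this order were larger than their spread and others were not. Dag1 exceeded Sspn by 1.21 ± 0.38 log2 units (SD of the difference, n = 25), Sgca exceeded Sgcb by 0.83 ± 0.18 and Utrn exceeded Sgcd by 2.81 ± 0.47, each in 25 of 25 mice. Dmd exceeded Dag1 by 0.21 ± 0.24 and Sspn exceeded Sgca by 0.16 ± 0.37, each in 20 of 25 mice. Sgcb and Utrn did not differ beyond their spread, with a difference of 0.0078 ± 0.32 and Sgcb higher in 13 of 25 mice. Sgcd exceeded Drp2 by 0.40 ± 0.81, in 17 of 25 mice. The order of their means differed by group. In control mice Drp2 was higher (2.65 against 2.53 for Sgcd), and in thymol mice it was lower (2.01 against 2.83). The order over all 25 mice therefore holds the difference on which Drp2 was selected. Of the 3 relatives, Dmd was higher than Utrn by 2.42 ± 0.27 log2 units (5.35-fold, lowest 2.04 and highest 3.02) and higher than Drp2 by 5.63 ± 0.54 (49.6-fold). Utrn was higher than Drp2 by 3.21 ± 0.56 log2 units (9.28-fold), and these distances were above 2 log2 units in every mouse.

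**Figure D1:**
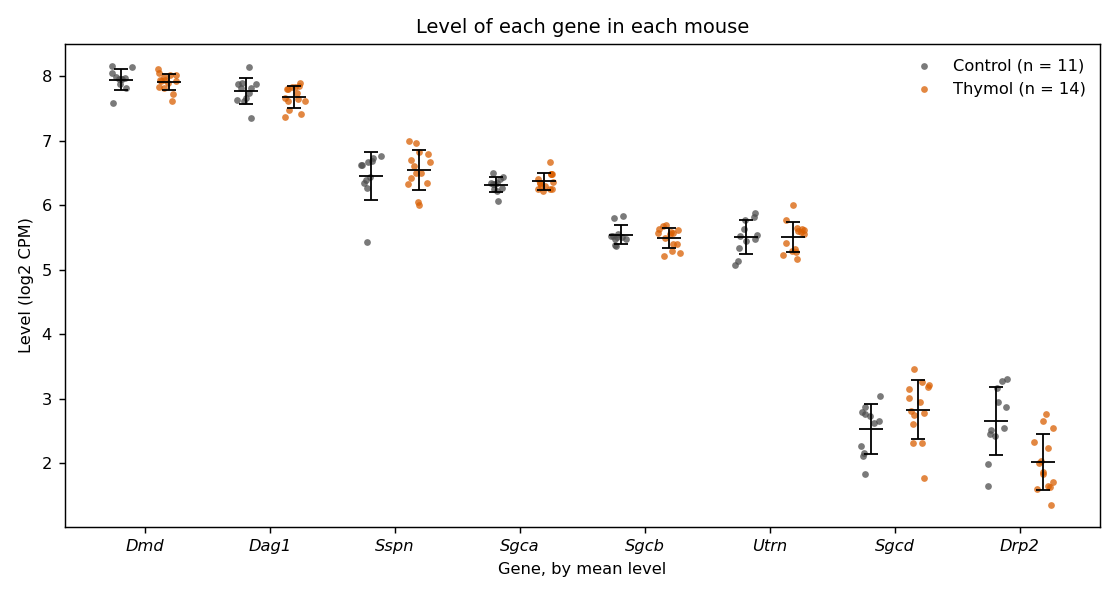
Level of each of the 8 genes in log2 CPM (y axis) by gene in order of mean level (x axis). Each point is a mouse (grey, control, n = 11, and orange, thymol, n = 14), and bars give the mean and SD of the group. Sgcd and Drp2 sit lowest, with mean levels of 2.70 and 2.29, and all other genes have a mean of 5.51 or more.

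The genes differed in how steady they were between mice. Sgca had the smallest SD within groups, 0.12 log2 units, and 11.5% of the 834 genes at a like level (within 0.5 log2 units) had a smaller one. Sgcb had an SD of 0.15, with 16.9% of 1326 such genes below it, and Dmd an SD of 0.14, with 36.8% of 285. Sspn was at the other end. Its SD of 0.34 was above that of 94.2% of 757 genes at a like level, and counting error accounted for 2.78% of its variance. The lowest Sspn value, 5.43 log2 CPM in control mouse 23 (309 reads), lay apart from the other 24 mice, which began at 5.99. Drp2 and Sgcd had the largest SD of the 8, at 0.48 and 0.43. They rested on 15 to 84 and on 24 to 93 reads per mouse, and counting error was 25.6% and 24.3% of their variance. Counting error was computed from the reads alone. Reads amplified by PCR without molecular identifiers are not independent molecules, so these shares cover counting error only.

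Drp2, as the values that selected it show, was lower in thymol than in control mice. In control mice its lowest, median and highest values were 1.64, 2.54 and 3.30 log2 CPM (22 to 84 reads), and in thymol mice they were 1.35, 1.93 and 2.76 (15 to 50 reads). The groups overlapped. The 5 highest control mice were above every thymol mouse, 3 thymol mice were below every control mouse, and 11 of 14 thymol mice were below the control median. The means were 2.65 ± 0.53 (SD, n = 11) and 2.01 ± 0.43 (SD, n = 14), a difference of -0.64 log2 units (SE 0.19) or 0.644-fold. Without the reads added before the logarithm, Drp2 had 6.37 ± 2.25 CPM in control and 3.94 ± 1.32 in thymol mice. A larger difference in either direction was found for 6 genes of the table. Drp2 was selected on this difference, so its place among all genes is a description and no evidence. The bulk tissue does not tell fewer cells of a type from less RNA per cell.

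No gene of the table passed the test between the groups, so the values of the 8 genes stand against a background of 0% called. Of 8829 genes, 0 had an adjusted p under 0.05 (limma, Benjamini-Hochberg over all genes), with a smallest adjusted p of 0.741. At an unadjusted p under 0.05 stood 312 genes, or 3.53%, and of these 162 were higher and 150 lower with thymol. The median difference over all genes was -0.0014 log2 units and the median SE was 0.11. None of the other 7 genes was called, with an adjusted p of 0.9999 for each (limma, Benjamini-Hochberg), and 0 of the 7 had an unadjusted p under 0.05.

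Dmd ranged from 7.58 through a median of 7.95 to 8.16 log2 CPM in control mice and from 7.62 through 7.92 to 8.10 in thymol mice. The groups covered the same range, and the difference was -0.04 (SE 0.059, 95% interval -0.16 to 0.08). Utrn ran from 5.07 through 5.52 to 5.87 in control and from 5.17 through 5.57 to 6.01 in thymol mice. Its difference was -0.0036 (SE 0.095, 95% interval -0.20 to 0.19), the smallest of the 8. Of the 3 relatives, Dmd and Utrn thus had intervals that end at differences of 0.20 log2 units or less in either direction.

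Dag1 had a lowest, median and highest value of 7.36, 7.81 and 8.14 log2 CPM in control and of 7.37, 7.70 and 7.90 in thymol mice. Its difference was -0.08 (SE 0.072, 95% interval -0.23 to 0.06), and 10 of 14 thymol mice were below the control median. Sspn ran from 5.43 through 6.62 to 6.76 in control and from 5.99 through 6.55 to 6.99 in thymol mice, with a difference of 0.10 (SE 0.12, 95% interval -0.16 to 0.35). That difference rested on control mouse 23. Without it the value was -0.0050.

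The 3 sarcoglycans had differences of both signs, none past the test. Sgca had 6.07, 6.33 and 6.50 log2 CPM as lowest, median and highest in control mice and 6.22, 6.34 and 6.67 in thymol mice, a difference of 0.05 (SE 0.055, 95% interval -0.06 to 0.16). Sgcb had 5.37, 5.51 and 5.83 in control and 5.21, 5.55 and 5.69 in thymol mice, a difference of -0.05 (SE 0.066, 95% interval -0.18 to 0.09). Sgcd had 1.83, 2.66 and 3.04 log2 CPM in control (24 to 58 reads) and 1.77, 2.88 and 3.46 in thymol mice (26 to 93 reads). Its difference of 0.30 (SE 0.17, 95% interval -0.05 to 0.64) was opposite in sign to that of Drp2, with 10 of 14 thymol mice above the control median and 5 above every control mouse. The lowest Sgcd value of all 25 mice, 1.77, was also in a thymol mouse.

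**Figure D2:**
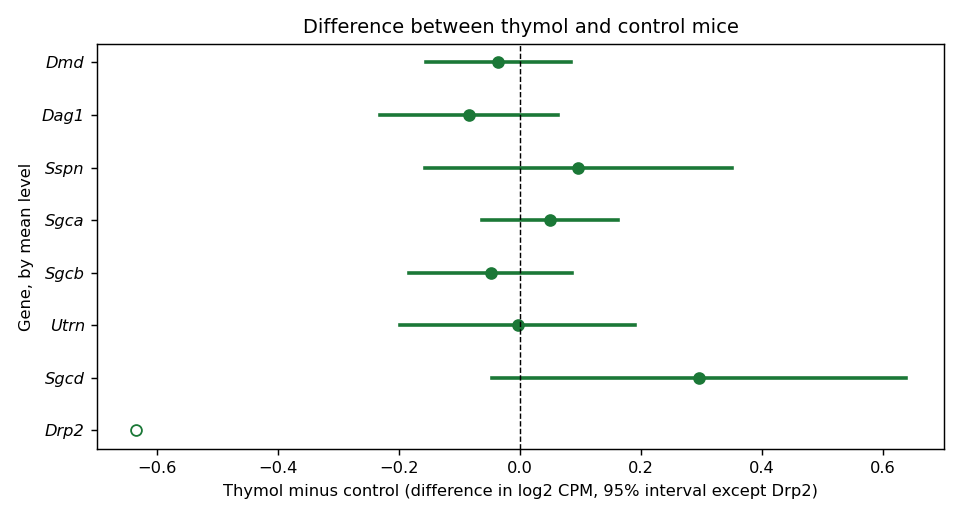
Thymol minus control in log2 CPM (x axis) for the 8 genes in order of mean level (y axis), with the 95% interval for 7 of them. Drp2 was selected on this comparison and is drawn as an open point at -0.64 with no interval, and the intervals of the other 7 genes contain 0.

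Other proteins that bind the complex were described from a list of 12 partner genes, of which 7 had a row in the table. None was called and none had an unadjusted p under 0.05 (background 3.53%), with 2 higher and 5 lower and a median difference of -0.07 against -0.0014 over all genes. Sgce (ε-sarcoglycan), which replaces Sgca in many other tissues, had a mean level of 2.62 log2 CPM and a difference of -0.20 (SE 0.15). Dtna (α-dystrobrevin), an adaptor at the inner face of the complex, had a level of 6.78 and a difference of -0.07 (SE 0.071). Sntb2 (β2-syntrophin) had a level of 3.41 and a difference of -0.12 (SE 0.14). Nos1, the nitric oxide synthase that syntrophin holds at the membrane, had a level of 4.65 and a difference of 0.09 (SE 0.13), and Cav3 (caveolin 3) a level of 5.14 and a difference of 0.09 (SE 0.084).

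The lists of genes that act around the complex gave the same counts of 0 called and 0 with an unadjusted p under 0.05. Of the 18 genes that make the sugar chains by which dystroglycan binds laminin, 14 had a row, with differences from -0.07 (Rxylt1) to 0.15 (Pomgnt2) and a median of 0.01. All 16 genes of the basement membrane had a row, 12 of them lower and 4 higher, with a median of -0.08 and a range of -0.17 (Lama4) to 0.15 (Nid2). Lama2, the laminin chain of the muscle basement membrane, had a difference of -0.11 (SE 0.13). Among 9 cytoskeletal linkers the differences ran from -0.11 (Actb) to 0.07 (Dst), and among 10 genes of integrin adhesion, the other laminin receptor system of muscle, from -0.10 (Parva) to 0.18 (Lims1). Among 11 genes of membrane repair they ran from -0.18 (Anxa5) to 0.03 (Dysf, dysferlin).

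The 8 genes were next compared between mice after the mean of each group was removed, to see whether members of the complex were high or low in the same mice. All 28 pairs were computed over 25 mice, with p from 100000 permutations of mice within groups, two-sided. None had an adjusted p under 0.05 (Benjamini-Hochberg over 28 pairs, smallest 0.753) and none an unadjusted p under 0.05. Pearson's r ran from -0.32 to 0.39 with a median of -0.07, and 13 pairs were positive and 15 negative.

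Dag1 and Sgcb had the highest r, 0.39 (permutation p = 0.0604, adjusted 0.753), with Spearman's rho of 0.36 (permutation p = 0.0826) and an r of 0.50 without the 2 mice farthest from the median of Dag1. With single mice left out r ran from 0.25 (without control mouse 1) to 0.54 (without thymol mouse 21). Utrn and Drp2 had an r of 0.31 (permutation p = 0.150, rho 0.30). Dmd and Drp2 had an r of 0.28 (permutation p = 0.189) but a rho of 0.04, and r was 0.03 without control mouse 14 and -0.18 without the 2 mice farthest from the median of Dmd, so this value rested on few mice. Dmd and Utrn had an r of 0.07 and a rho of -0.16. The lowest r was that of Drp2 and Sspn, -0.32 (permutation p = 0.133, rho -0.27). Among the sarcoglycans r was 0.21 for Sgca with Sgcb, -0.20 for Sgca with Sgcd and -0.11 for Sgcb with Sgcd.

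**Figure D3:**
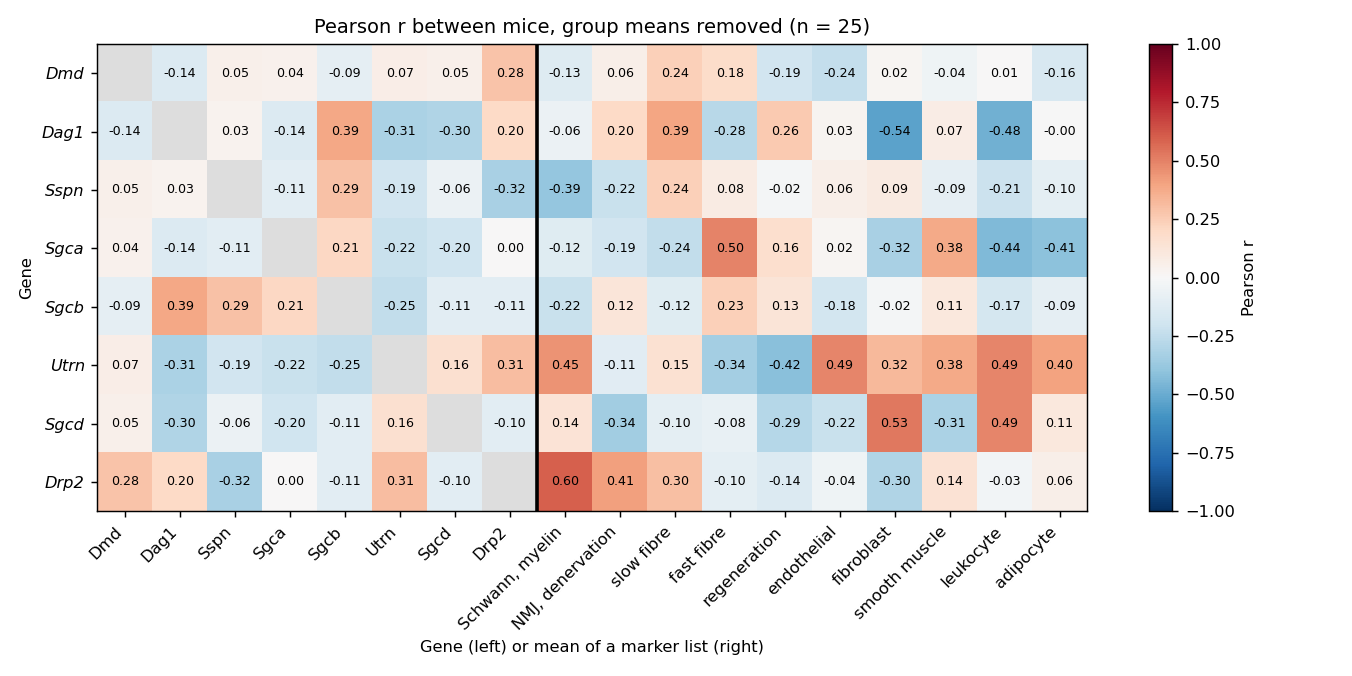
Pearson's r over 25 mice with group means removed, as colour from -1 (blue) to 1 (red) and as number, for each of the 8 genes (rows) with the other 7 genes (left of the line) and with the mean of 10 lists of marker genes (right of the line; NMJ, neuromuscular junction). The strongest cell among gene pairs is 0.39 for Dag1 with Sgcb, and the strongest with a list is 0.60 for Drp2 with Schwann cell and myelin genes.

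The gastrocnemius holds nerve, vessels, connective tissue and blood cells beside its fibres, so the 8 genes were also set against the mean log2 CPM of 10 lists of marker genes. Of 80 combinations, 0 had an adjusted p under 0.05 (permutation within groups, Benjamini-Hochberg over 80, smallest 0.177) and 14, or 17.5%, had an unadjusted p under 0.05. The same rule was met by 9.85% of 88137 combinations of the lists with all other genes. The 80 combinations share mice and lists, so no test was made between these shares. Sgca had its highest r with fast fibre genes (0.50, rho 0.47), Utrn with genes of leukocytes (0.49, rho 0.53) and endothelium (0.49, rho 0.46), and Sgcd with genes of fibroblasts (0.53, rho 0.53) and leukocytes (0.49, rho 0.43). Each of these had an adjusted permutation p of 0.177. Without thymol mouse 20 the r of Utrn with leukocyte genes was 0.68 and its adjusted permutation p was 0.040, the only one of the 80 under 0.05 when a mouse was left out. Without the 3 mice farthest out on the principal components, r was 0.64 for Utrn with leukocyte genes, 0.60 for Utrn with endothelial genes, and 0.41 for Sgcd with both fibroblast and leukocyte genes.

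Dag1 had an r of -0.54 with fibroblast genes (adjusted permutation p = 0.177), but rho was -0.30 and r was -0.17 without the 2 mice farthest from the median of the list. Its value without control mouse 18 was -0.35, so the relation rested on few mice. Dag1 with slow fibre genes had an r of 0.39 and a rho of 0.53 (permutation p = 0.00815, adjusted 0.174). Dmd had no list with an r beyond 0.24 in either direction, and Sgcb none beyond 0.23.

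Drp2 had the strongest relation of the 80, with genes of Schwann cells and myelin. Its r was 0.60 (permutation p = 0.00271, adjusted 0.177) and its rho 0.62 (permutation p = 0.00132, adjusted 0.106). Without the 2 mice farthest from the median of the list r was 0.65, and with each mouse left out in turn it ran from 0.54 to 0.65. Of 16 genes in this list 7 had a row in the table, and the defining markers Sox10, Egr2, Prx, Mag and Gjb1 had none. Drp2 had an r of 0.66 with Mbp (myelin basic protein), 3rd of all other genes. It was 0.48 with Ncmap, 0.44 with S100b, 0.44 with Pmp22 and -0.22 with Cnp. Utrn had an r of 0.45 with the same list and Sspn one of -0.39.

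The mean of the Schwann cell and myelin list was also compared between the groups. It ranged from 3.08 to 4.74 in control mice and from 3.00 to 4.18 in thymol mice, with means of 3.87 ± 0.53 (SD, n = 11) and 3.63 ± 0.31 (SD, n = 14), and 10 of 14 thymol mice were below the control median. The difference of -0.24 (SE 0.17) was within the spread between mice, and it was -0.15 without control mouse 35 and -0.15 without the 3 mice farthest out on the principal components. Of its 7 genes 6 were lower with thymol and none was called, and Mbp had a difference of -0.31 (SE 0.21). With the list mean as a covariate the difference of Drp2 was -0.47 (SE 0.17) against -0.64 without it. Without those 3 mice it was -0.54 (SE 0.20). The part of these cells in the difference of Drp2 was not tested. The list of the neuromuscular junction and denervation, 12 of 16 genes in the table, had a mean of 3.43 in both groups. None of its genes was called, and 1 had an unadjusted p under 0.05 (Dok7, -0.36, SE 0.14), named after its value was seen. Drp2 had an r of 0.41 with it but 0.15 without the 2 mice farthest from the median of that list. Of the other lists, slow fibre genes ranged from 6.62 to 9.67 in control and from 2.87 to 10.1 in thymol mice, with a difference of -0.25 (SE 0.61) and no gene called. That sign rested on thymol mouse 20, which had the lowest value. Without it the difference was 0.13, and without the 3 mice it was 0.20. The fibroblast list had a mean of 6.53 ± 0.59 in control and 6.41 ± 0.42 in thymol mice. For the leukocyte list these were 4.20 ± 0.68 and 4.17 ± 0.57, and for the endothelial list 4.49 ± 0.18 and 4.42 ± 0.19. The fibroblast and leukocyte differences were within the spread. With single mice left out, the fibroblast sign turned only without control mouse 18. The leukocyte sign turned without any of several mice, among them control mouse 18 (0.12), control mouse 35 (0.030) and thymol mouse 3 (0.016).

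**Figure D4:**
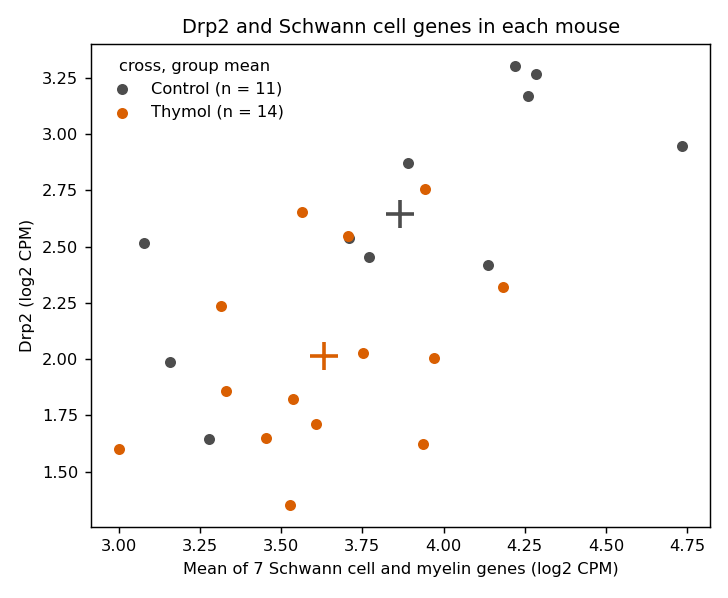
Drp2 in log2 CPM (y axis) against the mean log2 CPM of 7 Schwann cell and myelin genes (x axis) in each mouse (grey, control, n = 11, and orange, thymol, n = 14), with a cross at each group mean. Mice higher in the list tend to be higher in Drp2 (r = 0.60 over all 25 mice with group means removed, not computed within each group), and the thymol mean lies lower on both axes, 2.01 against 2.65 for Drp2 and 3.63 against 3.87 for the list.

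For each of the 8 genes the 3 genes of the table with the highest r between mice were found, over 25 mice with group means removed. A highest value among so many genes is large by its choice, so these values describe the libraries and carry no test. Dmd was most like Ttn (titin, r = 0.79), Ryr1 (the calcium release channel of the sarcoplasmic reticulum, 0.77) and Wnk1 (0.77). Utrn was most like Ndrg1 (0.78), Camk2n1 (0.74) and Vps11 (0.72), and Drp2 most like Usp53 (0.70), Gkap1 (0.66) and Mbp (0.66). For Dag1 they were Igdcc4, Ankrd33b and Trafd1 (0.71 to 0.76), for Sgca Fam168a, Mtx1 and Fbxw5 (0.72 to 0.77), and for Sgcb Zfp641, Atp11a and Ddb1 (0.63 to 0.77). For Sgcd they were Nubp2, Zeb2 and Mars1 (0.69 to 0.72), and for Sspn Mtr, Tspan15 and Shc2 (0.62 to 0.75). No gene of the complex was among the 3 most like any of the 8.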

How the data were processed

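Gastrocnemius RNA was sequenced with the QuantSeq 3′ kit in 25 mice. The authors used STAR 2.5.3 for mapping to GRCm38 (Ensembl release 101) and HTSeq-count 0.6.1 for counting. They stated a filter of at least 30 reads in at least 6 samples, applied TMM scaling and deposited log2 CPM for 8829 genes. The number of features that the paper gives for this filter is not 8829. It does not say which of its RNA data sets that number is for, and the reason for the difference is not known. The deposited log2 values hold about 2 added reads per library of mean size, with 0 reads at -1.90, and every gene in the table reaches 30 reads in at least 7 mice. Reads were recovered from the steps between values (100% whole within 0.05 reads, depth 4463818 to 9463418) and used for counting error and voom. Groups follow the treatment named in each label. Their comparison was made on the log2 values by limma 3.58.1 in R 4.3.3 (trended empirical Bayes, two-sided, Benjamini-Hochberg over all genes, threshold 0.05), whose intervals and p use all 25 mice. Correlations used values with group means removed and 100000 permutations of mice within groups (20000 when a mouse was left out), in numpy 2.4.6 and scipy 1.17.1. Tables were handled in pandas 2.3.3 and drawn in matplotlib 3.10.9. The scripts' tests were checked on simulated data.

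The 8 genes and all lists were chosen with earlier results of these data known. Genes named are the 8, the partner genes in the table, of each other list those of smallest p, the 3 most alike to each of the 8, the Schwann cell genes, and the highest marker of each other list. Not all are printed, some are not reported here, and range ends of the pathway lists were named after their values were seen. Alternatives were quantile normalization, median centring, the highest 75% of genes, no trend, robust moderation, sample weights (statmod 1.5.0), the first label number as a block, library number as a covariate, voom, 0.5 or 5 added reads and each mouse left out. A Schwann list covariate and leaving out 3 outlying mice in the group comparison, marker list means with mice left out and the share of other genes that vary with a list (2000 permutations) were added after the data were seen. The first label number was shared by 9 pairs of mice across the groups, whose deviations had a mean correlation of -0.0022 against 0.0002 for other pairs. No spread was computed for these means. The meaning of the number is not given, and whether it pairs mice was not tested.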

Additional observations from a re-analysis of the deposited data

How the results depend on the processing

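The count of 0 genes called between the groups held in all 38 alternative fits, with 233 to 348 genes at an unadjusted p under 0.05 (limma). The difference of Drp2 stayed negative in each that gave it a value. These fits reuse the libraries on which Drp2 was selected, so its sign in them is no independent evidence. It ran from -0.74 (without control mouse 14) to -0.57 (without control mouse 10) with single mice left out and was -0.69 with voom and -0.50 (SE 0.29) with the replicate block on the first number of the label. The differences of Dmd, Dag1 and Sgcb stayed negative and those of Sgca and Sgcd positive. Utrn, at -0.0036, changed sign with sample weights (0.0076), with the Schwann cell list as a covariate (0.058) and without the 3 outlying mice (0.077), both added after the data were seen, and ran from -0.048 (without control mouse 27) to 0.033 (without control mouse 18) with single mice left out. Sspn ran from -0.0050 (without control mouse 23) to 0.14. Drp2 and Sgcd gave no value among the highest 75% of genes, which leaves them out. No pair of the 8 genes was called in any of 31 alternatives. Of the 80 relations with marker lists, 0 to 1 was called when a mouse was left out, and 0 in the 6 other alternatives. Without added reads, 6 of the 8 genes kept their place in the order of levels, and Sgcb and Utrn changed places. Drp2 rests on 15 to 84 reads per mouse, which limits its precision.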
